A study of Homo sapiens with 17 samples.

Results

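The 52 genes described here are the translation initiation factor genes of the count table, chosen by name: every gene identifier that starts with EIF, apart from those starting with EIF2AK (the kinases of eIF2alpha) or EIF2C (an older symbol of the Argonaute genes). They are 52 of 23368 genes in the table, since 60 names start with EIF and 8 of these were left out. By assigned role, 6 were placed under start codon selection, with EIF1AD among them, whose part in it was not examined. Another 5 are eIF2 subunits or other carriers of initiator tRNA, 5 form the eIF2B exchange factor and 14 belong to the eIF3 scaffold. The cap-binding, scaffold and helicase proteins of the eIF4 group are 12, and 4 bind eIF4E. EIF5B and EIF6, 2 genes, act on the large ribosomal subunit, 3 are eIF5A genes, and EIF3IP1 has none of these roles. The name was a rule about symbols, so the 52 include inhibitors such as EIF4EBP1 and proteins with main duties elsewhere such as EIF4A3.

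The libraries came from HEK293T, a human embryonic kidney cell line that carries the SV40 large T antigen. Polyadenylated RNA was sequenced before selection (input), after pull-down with an antibody against N4-acetylcytidine, ac4C (IP), and after pull-down with an isotype control antibody (IgG), from WT cells and from cells given siRNA against TARDBP, the gene of TDP43 (siTDP43, labelled siTARDBP as genotype). The question was how acetylation of mRNA changes when TDP43 is depleted. WT had 3 input, 3 IP and 2 IgG libraries, siTDP43 had 3 of each, and all were from this 1 line. A control siRNA is not named for WT, which means that loss of TDP43 and transfection itself cannot be told apart, and the methods say in general that most experiments used independent samples but not that these libraries came from separate cultures, so p-values measure the spread between these libraries, which may be technical.

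Total counts per library ran from 3013989 to 3436811 in siTDP43 IgG, the shallowest group, up to 24542434 to 36583436 in the inputs. CPM, the count of a gene per megaread of its library after scaling for composition, gives a share of the library and not an amount of RNA. TARDBP was at 150, 157 and 151 CPM in WT input and 98.6, 102 and 106 CPM in siTDP43 input, which is 67.2% of the WT level (log2 -0.57 ± 0.05, standard error SE, adjusted p = 6.55e-13, edgeR). Of the HEK293T markers, NEFL and NEFM averaged 65.2 and 66.1 CPM in WT input, PAX2 and INA 0.882 and 0.199 CPM, and 5 markers of other cell types reached at most 6 counts in any input library.

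Initiation begins when eIF1, eIF1A, eIF3, eIF5 and eIF2 with its GTP and initiator tRNA load onto the small ribosomal subunit. The eIF4F proteins, eIF4E at the cap, the scaffold eIF4G and the helicase eIF4A, bring this complex to an mRNA, and after the start codon is found eIF5B joins the large subunit. eIF2B recharges eIF2 with GTP, and phosphorylation of eIF2alpha or binding of eIF4E by its inhibitors slows the whole process.

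Of the 52 genes, 46 passed the filter on low counts in WT and 45 in siTDP43 and in the inputs. EIF1AY, EIF3C, EIF3CL, EIF3IP1, EIF4A1 and EIF4EBP3 were tested in no comparison, and EIF4E1B, with at most 24 counts in any library, only where WT pull-downs entered. EIF4A1 was listed at 0 in all 17 libraries, and all of its exon bases are shared with the read-through gene SENP3-EIF4A1. EIF3C and EIF3CL, near copies that share 6097 exon bases, had at most 3 counts in any library. Counting by its default leaves reads in exons of 2 genes unassigned, so these low counts say nothing of transcription. EIF5A and its near copy EIF5AL1 share no exon bases with another gene. Only uniquely mapped reads were counted, though, so their values are open to doubt as well. EIF3M and EIF3G overlap a gene on the opposite strand over 15.9% and 10.3% of their exon bases, and the library method does not keep the strand.

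EIF5B, the GTPase that joins the ribosomal subunits, stood far above every other member in WT IP. It was at 50.7, 52.4 and 50.1 CPM in WT input, 20715, 23336 and 24411 CPM in WT IP, and 631 and 804 CPM in WT IgG. After TARDBP siRNA it was at 30.4, 34.0 and 34.2 CPM in input, 173, 164 and 130 CPM in IP, and 99.5, 101 and 92.9 CPM in IgG. No library of any of the 6 groups overlapped another group, and the order from high to low was WT IP, WT IgG, siTDP43 IP, siTDP43 IgG, WT input and siTDP43 input. EIF5B held the highest count of all genes in each WT IP library, with 2.48%, 2.72% and 2.81% of the counts, but ranked between 3108 and 3224 in WT input and between 1063 and 1318 in siTDP43 IP.

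In WT, EIF5B was higher in IP than in input by log2 8.81 ± 0.09 (SE, adjusted p = 1.08e-27, edgeR) and higher in IP than in IgG by log2 4.97 ± 0.09 (adjusted p = 2.88e-22). It was also higher in WT IgG than in WT input, by log2 3.84 ± 0.08 (adjusted p = 4e-22), so the control pull-down already held it 14.3-fold above input. In siTDP43 the difference between IP and input was log2 2.40 ± 0.10 (adjusted p = 2.18e-15) and that between IgG and input log2 1.80 ± 0.11 (adjusted p = 1.55e-12). Between siTDP43 IP and IgG it was log2 0.60 ± 0.11 (adjusted p = 3.91e-05), less than the 2-fold asked of an enrichment, and it turned to log2 -0.38 when the trend of counts with GC content was removed. An interaction term over all 17 libraries tested the change between genotypes. EIF5B fell by 6.55 on the log2 scale over input (SE 0.12, adjusted p = 2.47e-33) and fell by 4.31 over IgG (SE 0.13, adjusted p = 2.61e-25). In input RNA it fell by 0.63 (SE 0.07, adjusted p = 3.27e-10), to 64.5% of WT.

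**Figure D1:**
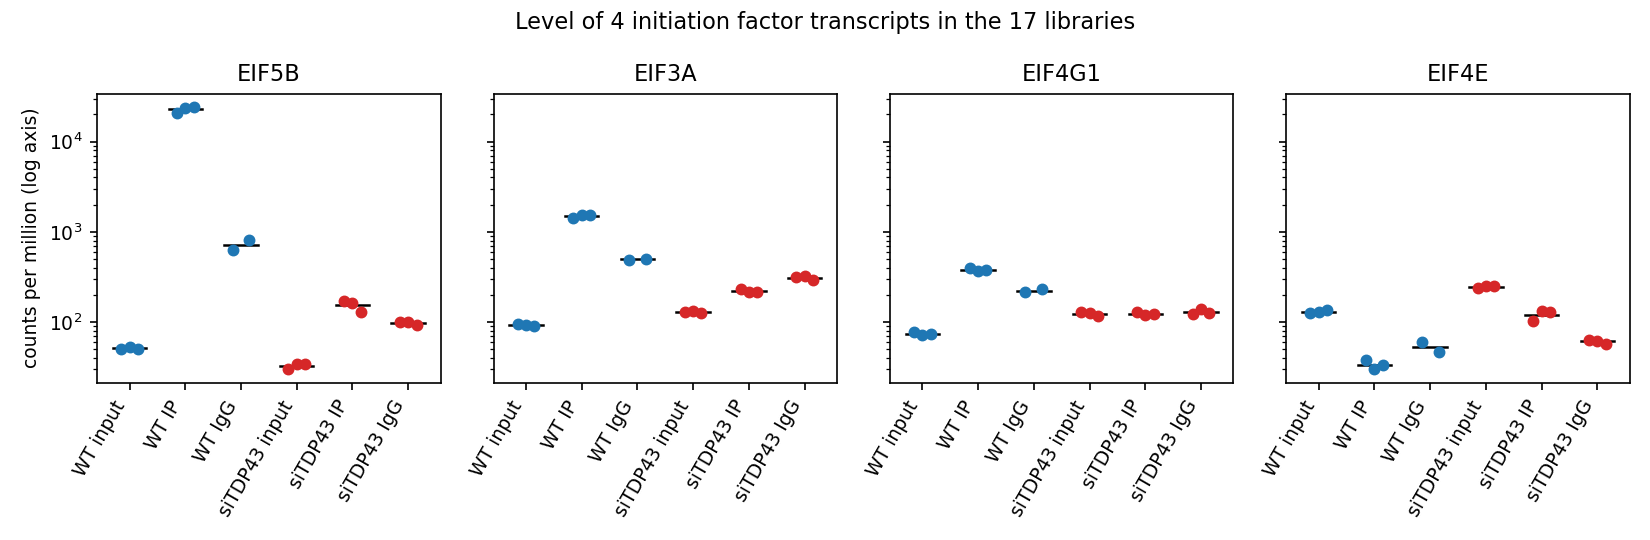
CPM (log axis) of EIF5B, EIF3A, EIF4G1 and EIF4E in the 17 libraries, with WT in blue and siTDP43 in red, a point per library and a line at each group mean. EIF5B ran from 30.4 CPM in siTDP43 input to 24411 CPM in WT IP, EIF3A and EIF4G1 were highest in WT IP, and EIF4E was lowest there.

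The exon sequence of EIF5B is unusual in composition, and a part of it is shown because its purine share and longest purine run exceeded those of the other 51 members. Purines (A and G) made up 61.0% of its 4698 exon bases, against a median of 50.6% over the 23093 genes with exon sequence, and 0.312% of genes had as high a share. Adenine alone made up 37.2%, against a median of 25.5%, a share reached by 0.515% of genes, and guanine made up 23.8%. It holds 23 runs of at least 12 purines without a break, of which 21 lie wholly in annotated coding sequence and 20 end by base 1997 of the joined exons. The longest run had 54 bases, a length reached by 0.290% of genes (exact 95% interval 0.225 to 0.368%) and by no other member. The interval treats genes as a random sample, though they are all genes with exon sequence. Exon lengths were not matched, and the median gene had a longest run of 14 bases. Cytidine, the base that ac4C modifies, made up 16.0% of the EIF5B exons, and 98.1% of genes had at least that share. The lines that follow give 2 stretches of coding exons on the plus strand of chromosome 2 in the human build hg19 (GRCh37), chr2:99980115-99980290 and chr2:99992841-99992937, with runs of at least 12 purines in capitals. The first stretch is 82.4% purine with 16 cytidines in 176 bases, and the second 90.7% purine with 4 cytidines in 97 bases.

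EIF5B, the first stretch: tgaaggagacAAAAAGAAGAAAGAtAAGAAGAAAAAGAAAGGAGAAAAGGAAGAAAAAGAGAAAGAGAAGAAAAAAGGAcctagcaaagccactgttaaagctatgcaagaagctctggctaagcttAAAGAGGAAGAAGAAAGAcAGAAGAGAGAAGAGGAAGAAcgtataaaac
EIF5B, the other stretch: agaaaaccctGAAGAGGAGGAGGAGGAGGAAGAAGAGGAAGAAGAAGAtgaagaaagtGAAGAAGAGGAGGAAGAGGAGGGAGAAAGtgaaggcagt

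**Figure D2:**
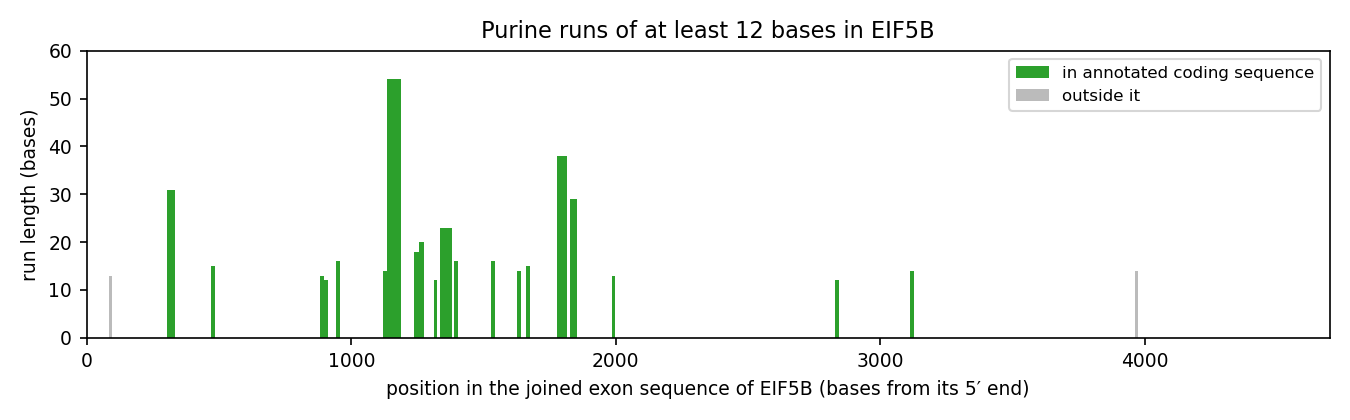
Position (x axis, bases from the 5′ end of the joined EIF5B exons) and length (y axis, bases) of the 23 purine runs of at least 12 bases, with runs in annotated coding sequence in green and the others in grey. The tallest bar is the 54-base run, and 20 of the runs end by base 1997.

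Long runs are not particular to EIF5B, whose second stretch above holds runs of 38 and 29 bases. EIF3D has a run of 46 bases across an exon junction and EIF4G1 one of 32 bases that is also annotated as untranslated, and neither is printed. For comparison, the longest purine run of the other members whose run lies in 1 exon, only in coding sequence, and has over 20 bases is given next, with 10 bases on each side in lower case. These are chr14:103804673-103804719 (plus strand) for EIF5, the GTPase-activating protein of eIF2, chr20:32693294-32693337 (minus strand) for EIF2S2, the beta subunit of eIF2, chr10:120810054-120810094 (minus strand) for EIF3A, the largest eIF3 subunit, and chr5:176070104-176070150 (plus strand) for EIF4E1B, an eIF4E homolog of germ cells.

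EIF5, 27 bases: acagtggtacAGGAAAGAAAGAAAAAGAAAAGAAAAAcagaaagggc
EIF2S2, 24 bases: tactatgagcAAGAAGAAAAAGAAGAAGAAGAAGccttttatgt
EIF3A, 21 bases: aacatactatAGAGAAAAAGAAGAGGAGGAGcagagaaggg
EIF4E1B, 27 bases: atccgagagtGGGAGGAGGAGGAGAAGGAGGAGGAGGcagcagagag

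Across the 46 members tested in WT, a longer longest run went with a higher log2 of IP over input (Spearman rho 0.49, and 0.45 without EIF5B). It also went with a lower log2 change of that enrichment in siTDP43 (rho -0.64, and -0.62 without EIF5B). This change subtracts the WT value just described, so it is not a separate result. For siTDP43 IP over input itself rho was 0.02 over 45 members (-0.04 without EIF5B, and 0.06 over all genes). The 46 include EIF4E1B, which had 0 counts in every siTDP43 IP library, so its fitted change rests on few counts. Over all genes tested the coefficients for WT IP over input and for the change were 0.22 and -0.16. The control pull-down gave a like value, and the comparisons with IgG gave weak ones. For WT IgG over input rho was 0.41 (0.37 without EIF5B), for WT IP over IgG 0.19 (0.13 without EIF5B, and -0.06 over all genes) and for the change over IgG -0.13 (-0.07 without EIF5B). Over input, exon length gave 0.43 and -0.45 in the members, and these points share length, base composition and the same libraries. For WT IP over input, rho over all genes was 0.36 with GC content, 0.34 with the cytidine share and -0.02 with the purine share. In the members these coefficients were 0.10, -0.002 and 0.30. A long run did not go with a high value in every gene. EIF3D, an eIF3 subunit that can itself bind the cap, has a 46-base run across an exon junction and was lower in WT IP than in input (log2 -1.34 ± 0.05, adjusted p = 3.65e-17).

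**Figure D3:**
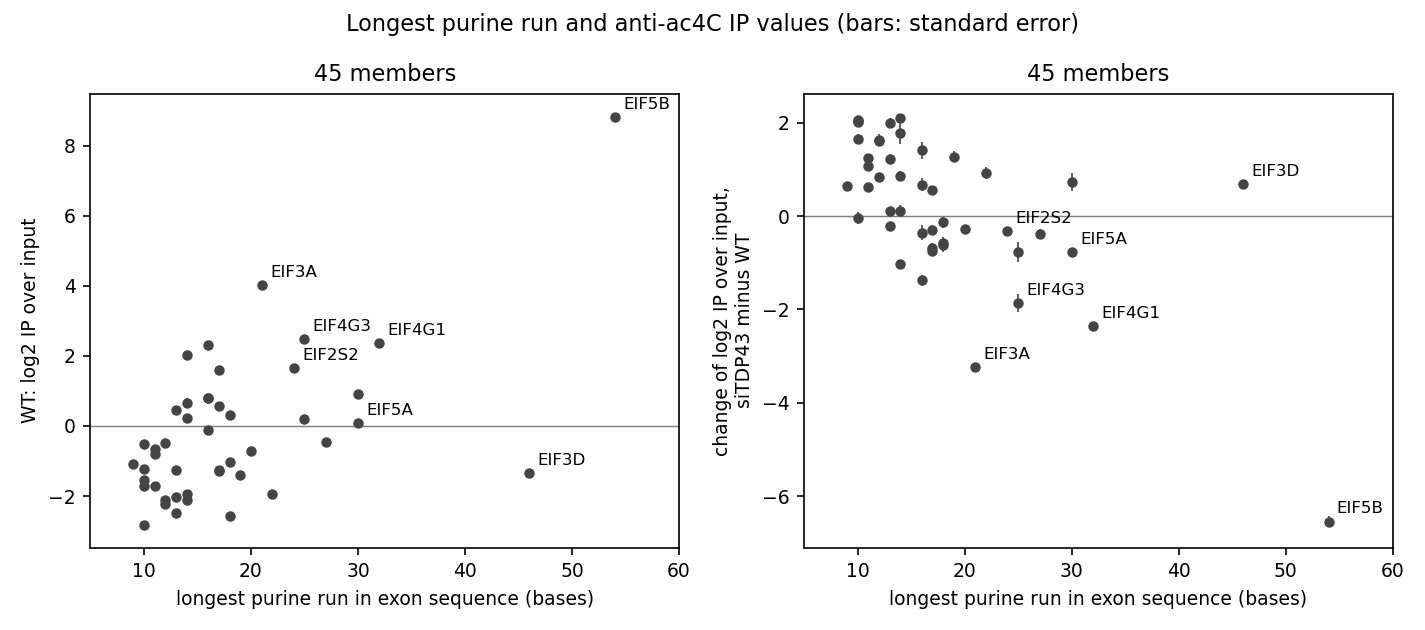
Longest purine run in the exon sequence (x axis, bases) against the log2 of WT IP over input (left) and the log2 change of IP over input between genotypes (right), a point for each of 45 members (EIF4E1B, with few counts, is left out) with standard error bars. EIF5B lies at the far right of both panels, EIF3A, EIF4G1 and EIF4G3 lie above 2 on the left and below -1 on the right, and EIF3D has a long run with a value of -1.34 on the left.

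In input RNA, 25 of 45 members were higher in siTDP43 than in WT (55.6%, against 38.6% of all 14036 genes tested) and 17 were lower (37.8%, against 40.6% of all genes), with calls at an adjusted p under 0.05 and no fold limit. The median member differed by log2 0.37 and the median gene by -0.05. EIF2B3, EIF3D and EIF6 were the 3 members not called. Libraries of the 2 groups did not overlap in 42 of the 45 members, and the share over all genes was not counted. The roles did not move as blocks, as the plot of input changes by role shows.

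Among the start codon factors, EIF1, which guards start codon fidelity, was at 2298, 2315 and 2302 CPM in WT input and 851, 856 and 895 CPM in siTDP43 input. Its close homolog EIF1B was at 251, 268 and 263 CPM against 80.5, 81.6 and 85.6 CPM. Both fell without overlap, EIF1 by log2 -1.41 (SE 0.03, adjusted p = 9.92e-26) and EIF1B by log2 -1.65 (SE 0.04, adjusted p = 1.08e-24). EIF1AX, which works beside eIF1 in scanning, went the other way, from 128, 135 and 134 CPM to 297, 317 and 312 CPM (log2 1.23 ± 0.04, adjusted p = 4.9e-22), and EIF5 rose from 172, 192 and 183 CPM to 271, 272 and 286 CPM (log2 0.60 ± 0.04, adjusted p = 5.64e-14).

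All 3 subunits of eIF2 rose, in a comparison where 38.6% of all genes did. EIF2S1, the alpha subunit on which stress kinases act, went from 119, 127 and 127 CPM to 289, 299 and 303 CPM (log2 1.26 ± 0.04, adjusted p = 2.49e-22). EIF2S3, the gamma subunit that holds GTP and tRNA, went from 242, 247 and 262 CPM to 550, 548 and 541 CPM (log2 1.13 ± 0.04, adjusted p = 7.41e-22), and EIF2S2 rose from 226, 230 and 225 CPM to 285, 291 and 303 CPM (log2 0.37 ± 0.04, adjusted p = 4.54e-10). Of the 5 subunits of eIF2B, EIF2B1, EIF2B2 and EIF2B4 rose, by log2 0.55 to 0.98, while EIF2B5, the catalytic subunit, fell by 1.01 (SE 0.11, adjusted p = 6.09e-10).

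The eIF3 subunits split, with 5 of 12 tested members higher and 6 lower (41.7% and 50%, against 38.6% and 40.6% of all genes). EIF3I rose most (log2 1.18 ± 0.04, adjusted p = 9.26e-24), followed by EIF3G (log2 0.77), and EIF3J, a loosely bound subunit, fell most (log2 -0.81 ± 0.05, adjusted p = 6.16e-15), followed by EIF3H (log2 -0.64). In the eIF4 group 7 of 10 tested members were higher and 3 lower (70% and 30%, against the same shares of all genes). EIF4G2, an eIF4G relative that lacks the eIF4E-binding site, was at 318, 312 and 325 CPM in WT input and 1188, 1162 and 1212 CPM in siTDP43 input, the largest rise among the members tested (log2 1.90 ± 0.04, adjusted p = 3.12e-28).

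EIF4E, the cap-binding protein, rose from 125, 130 and 136 CPM to 240, 248 and 251 CPM (log2 0.92 ± 0.04, adjusted p = 1.69e-18), and EIF4G1, the main scaffold, rose from 76.7, 72.3 and 72.7 CPM to 129, 125 and 117 CPM (log2 0.75 ± 0.05, adjusted p = 1.04e-14). Of the helicases, EIF4A3 of the exon junction complex rose from 266, 272 and 274 CPM to 501, 500 and 518 CPM (log2 0.91 ± 0.04, adjusted p = 6.31e-20). EIF4A2, which unwinds mRNA for scanning, fell from 422, 421 and 428 CPM to 296, 317 and 327 CPM (log2 -0.43 ± 0.04, adjusted p = 3.14e-11). None of these genes had overlapping groups, as for 42 of the 45 members tested. EIF4E3, a minor cap-binding homolog, was low and fell most of the members tested, from 10.7, 10.7 and 10.4 CPM to 2.77, 2.30 and 2.27 CPM (log2 -2.10 ± 0.15, adjusted p = 1.56e-13). EIF4EBP1, the inhibitor of eIF4E under mTOR control, fell from 808, 813 and 794 CPM to 339, 301 and 308 CPM (log2 -1.34 ± 0.04, adjusted p = 2.64e-23), while its relative EIF4EBP2 rose by log2 0.60 ± 0.05 (adjusted p = 1.32e-12).

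The eIF5A genes divided too. EIF5A, which relieves stalled ribosomes, fell from 1121, 1136 and 1135 CPM to 804, 769 and 832 CPM (log2 -0.49 ± 0.04, adjusted p = 1e-13). It turned to log2 0.00 when the GC trend was removed, while EIF5A2 rose from 10.9, 9.77 and 11.1 CPM to 21.2, 21.5 and 21.1 CPM (log2 1.01 ± 0.10, adjusted p = 7e-11). EIF6, which keeps the large subunit from joining too early, was at 322, 308 and 299 CPM in WT input and 314, 290 and 282 CPM in siTDP43 input (log2 -0.06 ± 0.04, adjusted p = 0.195), and the 2 groups overlapped. Its value was 0.55 with the GC trend removed.

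**Figure D4:**
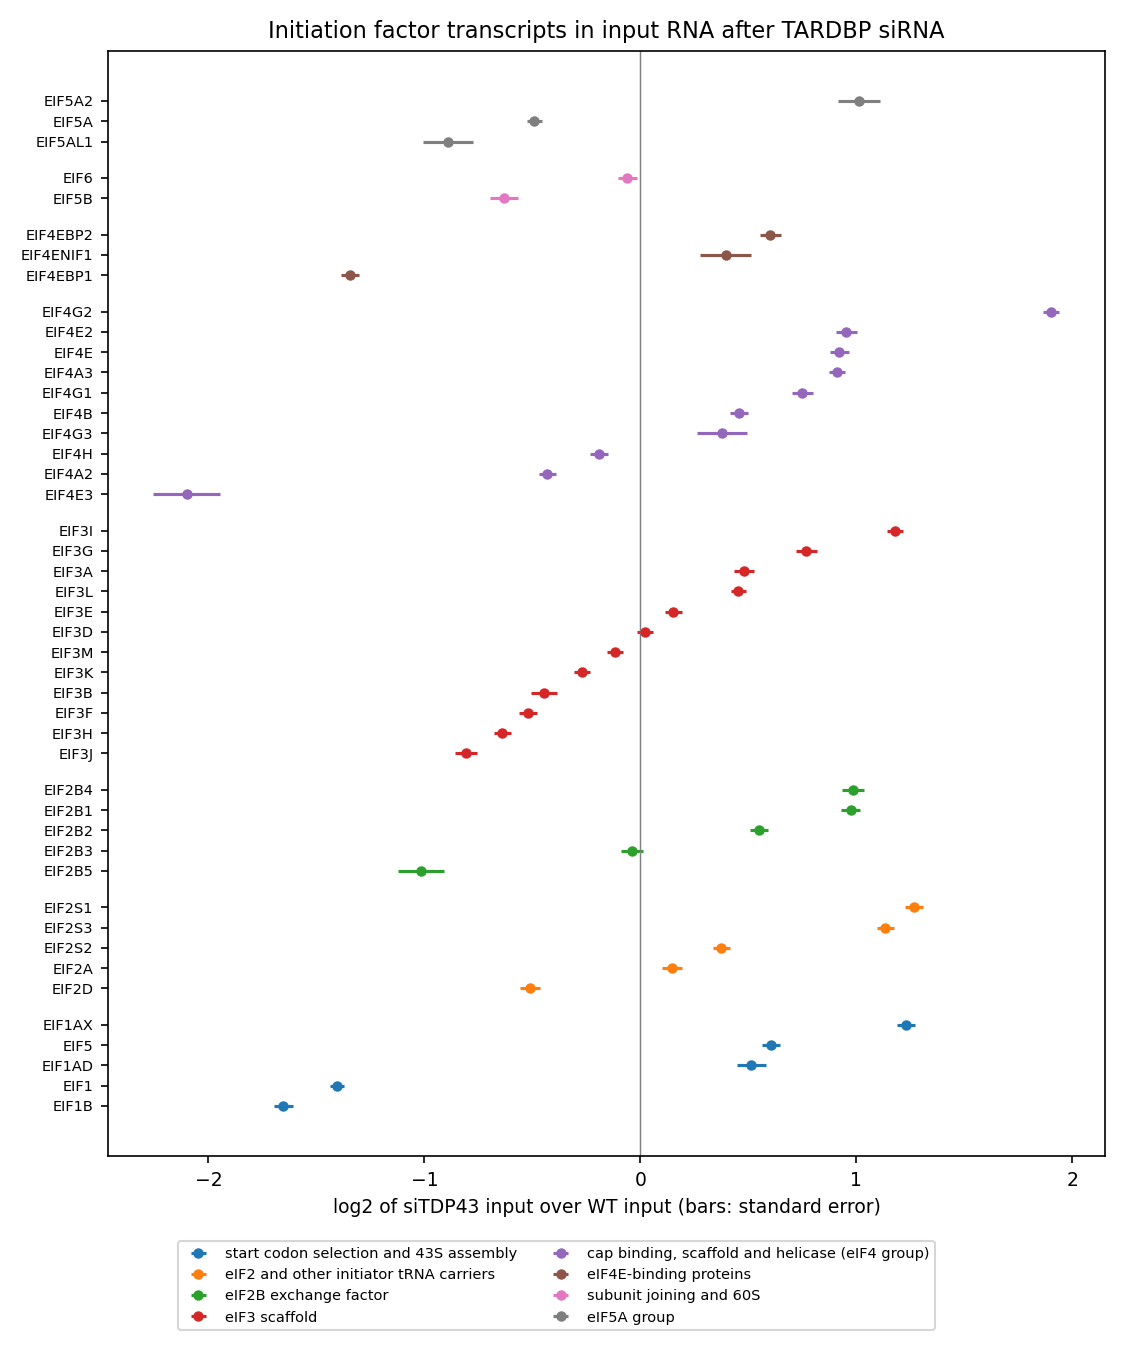
Log2 of siTDP43 input over WT input (x axis) with standard error bars for the 45 members tested, grouped and coloured by role. Values run from -2.10 for EIF4E3 to 1.90 for EIF4G2, and most roles hold members on both sides of 0.

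Read per kilobase of exon, which allows genes to be compared, EIF1 was the most abundant member in WT input at 1738 CPM per kb, followed by EIF4EBP1 at 937 and EIF5A at 622. EIF5B was at 10.9 CPM per kb in WT input, but at 4857 CPM per kb in WT IP, where EIF1, the next member, was at 1238. In siTDP43 input EIF3I came first at 1180 CPM per kb, followed by EIF1 at 654. The ratio of EIF1 to EIF1B per length was 6.75 ± 0.202 (SD, n = 3) in WT input and 8.02 ± 0.0451 in siTDP43 input, and that of EIF4A3 to EIF4A2 went from 0.697 ± 0.00940 to 1.76 ± 0.0704. EIF4G2 exceeded EIF4G1 6.12 ± 0.234 times in WT input and 13.6 ± 0.892 times in siTDP43 input, but was at 0.488 ± 0.000704 of it in WT IP.

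In the WT pull-down the members as a group sat on the low side. Of 46 tested, 9 were higher in IP than in input (19.6%, against 30.2% of all 14751 genes tested) and 20 were lower (43.5%, against 27.3% of all genes), where a call needed an adjusted p under 0.05 and more than a 2-fold difference. The median member was at log2 -0.58 and the median gene at 0.01. The 9 higher members were EIF5B, EIF3A, EIF4G3, EIF4G1, EIF4ENIF1, EIF3B, EIF2S2, EIF3J and, at low counts, EIF4E1B.

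EIF3A was at 95.5, 91.8 and 91.3 CPM in WT input, 1427, 1519 and 1535 CPM in WT IP and 490 and 498 CPM in WT IgG. Its log2 of IP over input was 4.01 ± 0.05 (adjusted p = 1.94e-26), and the 3 groups were well apart. EIF3B, which with EIF3A forms the core of eIF3, was higher by log2 2.01 ± 0.05 (adjusted p = 2.16e-20) and EIF3J by log2 1.59 ± 0.06 (adjusted p = 7.67e-18). Against these, 6 of the 12 tested eIF3 subunits were lower in IP (50%, against 27.3% of all genes), while 3 were higher (25%, against 30.2%). EIF3M was the lowest, at 444, 444 and 440 CPM in input and 61.6, 62.5 and 62.5 CPM in IP (log2 -2.82 ± 0.07, adjusted p = 1.46e-21), with EIF3H (log2 -2.11) and EIF3E (log2 -1.94) next.

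Of the 11 tested members of the eIF4 group, 3 were higher in IP and 6 lower (27.3% and 54.5%, against 30.2% and 27.3% of all genes). EIF4G3 was at 10.8, 9.997 and 10.4 CPM in WT input and 54.6, 58.0 and 60.9 CPM in IP (log2 2.48 ± 0.09, adjusted p = 1.35e-17), and EIF4G1 was at 76.7, 72.3 and 72.7 against 393, 372 and 373 CPM (log2 2.37 ± 0.05, adjusted p = 8.64e-22). EIF4E was at 125, 130 and 136 against 38.3, 29.8 and 33.0 CPM (log2 -1.95 ± 0.09, adjusted p = 4.16e-16), and EIF4A2 at 422, 421 and 428 against 76.5, 77.4 and 71.0 CPM (log2 -2.49 ± 0.06, adjusted p = 9.45e-22). Each of these 4 genes had no overlap between input and IP, which held for 44 of the 46 members tested and so does not set them apart. The share over all genes was not counted. The helicase cofactors EIF4B and EIF4H were lower by log2 -2.04 ± 0.06 and -2.10 ± 0.06 (adjusted p = 9.17e-20 and 6.26e-20), and EIF4A3 and EIF4G2 by log2 -1.27 and -1.28, both with an SE of 0.06.

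Of the eIF2 subunits, EIF2S2 was higher in IP, at 667, 700 and 754 CPM (log2 1.65 ± 0.05, adjusted p = 4.83e-19), EIF2S1 lower, at 46.3, 54.6 and 53.2 CPM (log2 -1.26 ± 0.07, adjusted p = 1.12e-14), and EIF2S3 within 2-fold, at 296, 293 and 290 CPM (log2 0.24 ± 0.05). EIF2A and EIF2D, proteins that can deliver tRNA without eIF2, were lower. EIF2D was at 127, 124 and 126 CPM in input and 22.7, 20.6 and 19.6 CPM in IP (log2 -2.57 ± 0.08, adjusted p = 6.44e-19), and EIF2A had log2 -2.23 ± 0.08 (adjusted p = 3.84e-18). EIF4ENIF1, which carries eIF4E and takes part in mRNA decay, was higher (log2 2.31 ± 0.09, adjusted p = 2.08e-17). EIF6 was lower by log2 -1.09 ± 0.06 (adjusted p = 4.16e-15), close to the 2-fold limit.

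The isotype control pull-down also differed from input. In WT IgG over input 16 of 46 members were higher (34.8%, against 24.4% of all genes) and 12 were lower (26.1%, against 36.6%), so that here, unlike in IP, members were called higher more often and lower less often than all genes, a difference that was not tested. EIF2S2 was at 226, 230 and 225 CPM in input and 1507 and 1656 CPM in IgG, above its IP level (log2 2.83 ± 0.06, adjusted p = 4.1e-22), and EIF3A was higher by log2 2.44 ± 0.05 (adjusted p = 1e-21). EIF4H was at 284, 316 and 307 CPM in input and 8.34 and 8.13 CPM in IgG (log2 -5.17 ± 0.10, adjusted p = 2.03e-22), with EIF2D (log2 -3.45) and EIF3G (log2 -2.71) next among the called members. IP and IgG were each compared with the same input libraries.

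Set against IgG, fewer members were apart. In WT 6 of 46 were higher in IP than in IgG (13.0%, against 35.2% of all genes) and 9 lower (19.6%, against 17.8%), and the median member was at log2 -0.47 against 0.29 for all genes. After EIF5B the called members with the highest values and 100 or more counts on average were EIF4H, at 68.7, 74.4 and 67.4 CPM in IP (log2 3.07 ± 0.11, adjusted p = 1.52e-17), EIF3G (log2 1.69 ± 0.11, adjusted p = 2.45e-12) and EIF3A (log2 1.58 ± 0.05, adjusted p = 1.19e-17). EIF4H and EIF3G were thus higher than IgG but lower than input. With the GC trend removed EIF3G was at log2 0.72 and no longer passed 2-fold. The lowest were EIF2A, at 32.1, 30.6 and 25.1 CPM in IP and 198 and 170 CPM in IgG (log2 -2.67 ± 0.09, adjusted p = 4.92e-18), EIF2B3 (log2 -2.37) and EIF3M (log2 -1.90). With the GC trend removed the counts in WT were 3 higher and 18 lower, while all genes went to 27.4% and 28.8%.

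In siTDP43 cells the pull-down over input gave 10 of 45 members higher (22.2%, against 26.8% of all 12746 genes tested) and 7 lower (15.6%, against 25.4%). EIF3B was highest, at 38.8, 37.5 and 37.9 CPM in input and 307, 257 and 270 CPM in IP (log2 3.02 ± 0.08, adjusted p = 6.35e-19), followed by EIF4E3 (log2 2.60 ± 0.26, adjusted p = 5.21e-09) and EIF5B. EIF2D was lowest, at 87.2, 85.9 and 90.1 against 9.73, 8.30 and 10.8 CPM (log2 -3.04 ± 0.14, adjusted p = 1.49e-14), followed by EIF4G2 (log2 -1.88 ± 0.07, adjusted p = 9.06e-17) and EIF4H (log2 -1.84 ± 0.09, adjusted p = 4.38e-14). EIF4G1 was at 129, 125 and 117 CPM in input and 128, 120 and 124 CPM in IP, and the groups overlapped (log2 0.16 ± 0.08, adjusted p = 0.0679). Scaled by total counts, 11 members and 33.9% of all genes were lower, and EIF4G1 was at log2 -0.18.

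IgG over input in siTDP43 gave 12 of 45 higher (26.7%, against 24.7%) and 9 lower (20%, against 41.0%). EIF3B was again highest (log2 3.96 ± 0.09, adjusted p = 6.8e-21), then EIF2B5 (log2 3.02 ± 0.16, adjusted p = 1.26e-13) and EIF3K (log2 2.18 ± 0.06, adjusted p = 2.6e-19), and EIF4H (log2 -3.85) and EIF2D (log2 -3.55) were low. EIF5A2 had 2, 0 and 2 counts in the 3 siTDP43 IgG libraries and a mean of 21.2 CPM in input. Set at a floor of 3 counts per library, it was 18.8-fold lower in IgG. Values by this floor leave out the spread between libraries and are no strict bounds. With scaling by total counts 16 members and 50.4% of all genes were lower, and with the GC trend removed 21 members were higher and 5 lower, against 34.0% and 30.0% of all genes.

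IP over IgG in siTDP43 gave 6 of 45 higher (13.3%, against 34.0%) and 2 lower (4.44%, against 15.0%), with a median of log2 -0.14 for the members and 0.33 for all genes. The member median turned to 0.07 both with total counts and with limma on log2(FPKM + 1), and with the GC trend removed the medians were -0.86 and -0.29. EIF3F was at 280, 257 and 243 CPM in IP and 47.7, 59.1 and 39.9 CPM in IgG (log2 2.35 ± 0.11, adjusted p = 2.34e-13), and EIF4H at 74.9, 62.1 and 61.2 against 14.7, 19.4 and 13.2 CPM (log2 2.01 ± 0.14, adjusted p = 8.62e-11). EIF4G3 (log2 1.56 ± 0.26, adjusted p = 1.73e-05), EIF4E3, EIF4B and EIF5A2 were the other higher members, and EIF5A2, at 12.5, 15.0 and 15.8 CPM in IP, was 12.8-fold higher by the floor of 3 counts. EIF4EBP1, at 327, 301 and 288 CPM in IP and 649, 634 and 641 CPM in IgG (log2 -1.14 ± 0.07, adjusted p = 3.93e-12), and EIF3G (log2 -1.03 ± 0.10, adjusted p = 1.22e-08) were the 2 lower. Both values lie near the 2-fold limit, and the count of 2 became 1 without siTDP43 IP replicate 2 or without siTDP43 IgG replicate 1. With scaling by total counts it became 0, where 12.2% of all genes were lower. With the GC trend removed 3 members were higher and 19 lower, against 24.7% and 29.0% of all genes.

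**Figure D5:**
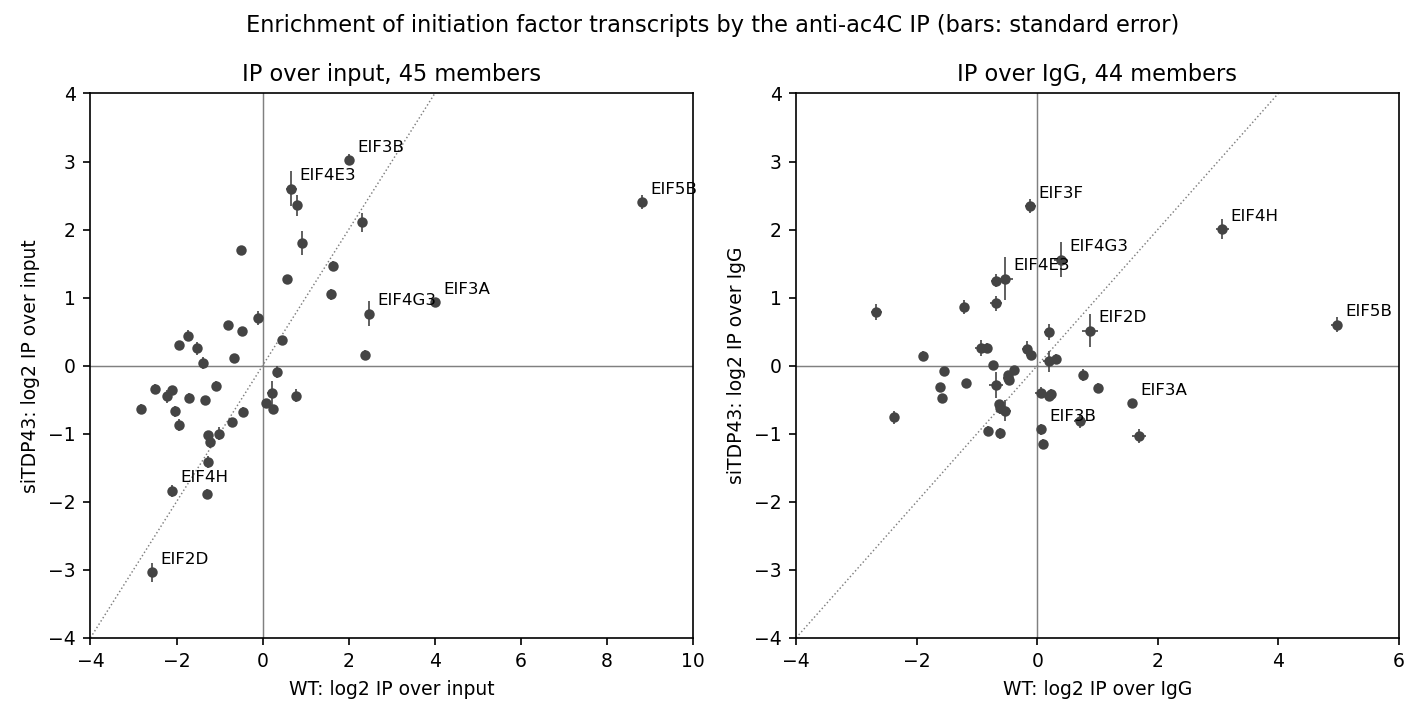
Log2 of IP over input (left, 45 members) and of IP over IgG (right, 44 members, without EIF5A2 whose siTDP43 IgG counts are at the floor) in WT (x axis) and siTDP43 (y axis), with standard error bars and a dotted line of equal values. EIF5B lies far to the right in both panels, at 8.81 and 4.97 in WT against 2.40 and 0.60 in siTDP43, and EIF4H is high in both genotypes on the right.

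The difference between genotypes was tested directly as an interaction. Over input, 23 of 46 members rose from WT to siTDP43 (50%, against 31.5% of all 15165 genes tested) and 17 fell (37%, against 36.3%). Calls here had no fold limit, and among genes with a mean of at least 50 counts 37.4% rose and 37.1% fell. The median member changed by log2 0.34 and the median gene by -0.19, and by 0.54 and 0.08 with the GC trend removed. The 46 include EIF4E1B, with 0 counts in every siTDP43 IP library. The falls were led by EIF5B, then EIF3A (log2 -3.23 ± 0.08, adjusted p = 1.02e-28) and EIF4G1 (log2 -2.36 ± 0.09, adjusted p = 1.3e-22). EIF3A was at 128, 132 and 126 CPM in siTDP43 input and 231, 214 and 216 CPM in IP, so IP was still above input there but within 2-fold (log2 0.93 ± 0.07). EIF4G3 fell by 1.86 (SE 0.19, adjusted p = 5.17e-11). The rises were led by eIF3 subunits, EIF3E (log2 2.10 ± 0.08, adjusted p = 3.23e-23), EIF3K (log2 2.05 ± 0.08, adjusted p = 2.64e-23) and EIF3M (log2 2.04 ± 0.10, adjusted p = 1.74e-19). EIF3E was at 603, 614 and 623 CPM in WT input, 154, 157 and 165 in WT IP, 651, 675 and 713 in siTDP43 input and 802, 759 and 707 in siTDP43 IP. In WT its IP lay below input, and in siTDP43 the groups overlapped. EIF3M was at 398, 403 and 419 CPM in siTDP43 input and 256, 213 and 236 CPM in IP, below input in both genotypes. EIF3K went from 331, 340 and 324 CPM in input and 223, 236 and 241 CPM in IP in WT to 278, 270 and 274 CPM and 844, 786 and 765 CPM in siTDP43, so its IP crossed from below to above input. In all, 8 of the 12 tested eIF3 subunits rose and 3 fell in this comparison (66.7% and 25%, against 31.5% and 36.3% of all genes).

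Over IgG, 24 of 46 members rose (52.2%, against 34.9% of all genes) and 13 fell (28.3%, against 25.9%). Among genes with a mean of at least 50 counts 42.5% rose and 32.0% fell, again with no fold limit. The median member changed by log2 0.33 and the median gene by 0.24, and by -0.07 and 0.04 with the GC trend removed. After EIF5B the falls were led by EIF3G (log2 -2.67 ± 0.17, adjusted p = 1.56e-16), which went from 73.3, 66.3 and 72.2 CPM in WT IP against 17.3 and 25.9 in IgG to 126, 101 and 99.8 CPM in siTDP43 IP against 238, 217 and 182 in IgG, and by EIF3A (log2 -2.08 ± 0.09, adjusted p = 4.18e-21). EIF2A (log2 3.51 ± 0.15, adjusted p = 3.25e-21) and EIF3F (log2 2.52 ± 0.15, adjusted p = 4.03e-17) rose, and EIF5A2 rose 38.2-fold by the floor of 3 counts per library. EIF2A was at 89.4, 111 and 101 CPM in siTDP43 IP and 58.0, 48.5 and 59.1 CPM in IgG, the opposite order from WT. EIF3F was at 98.0, 95.2 and 84.1 CPM in WT IP against 114 and 84.0 CPM in WT IgG, where the groups overlapped, and did not overlap in siTDP43. EIF5B and EIF3A fell both over input and over IgG, comparisons that share the IP libraries. EIF3G and EIF5A2 were called in opposite directions in WT and siTDP43 over IgG.

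A transcript was taken as ac4C(+) when IP was called higher than both input and IgG of the same genotype. In WT 3 of 46 members were ac4C(+), EIF3A, EIF4E1B and EIF5B, where 15.6% of all tested genes were. EIF4E1B was at 0.992, 0.653 and 0.975 CPM in WT IP, from 24, 16 and 22 counts, and its call was lost under 7 of the 9 other processing settings that kept the rule, which left EIF3A and EIF5B. In siTDP43 1 of 45, EIF4E3, was ac4C(+), where 10.3% of all tested genes were. EIF4E3 was at 15.9, 11.9 and 12.2 CPM in siTDP43 IP, 2.77, 2.30 and 2.27 CPM in input and 5.87, 4.05 and 5.69 CPM in IgG, and 4.52% of its exon bases overlap a gene on the opposite strand. The call was lost with the GC trend removed and with limma on log2(FPKM + 1). With a fold change above 5 asked over IgG, EIF5B alone remained in WT and no member in siTDP43, where 10.5% and 6.99% of all tested genes did.

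The genes with the most similar pattern to EIF5B were found by the smallest distance between centred group means of log2(CPM + 1) over the 6 groups, among 10140 other genes with at least 100 counts on average. They were ANKRD11 (distance 1.36), CEP290 (1.68), ZC3H13 (1.70), PALM3 (2.23) and HMGN5 (2.26). ANKRD11 averaged 15.0, 3288, 142, 5.67, 52.3 and 44.8 CPM in WT input, IP and IgG and siTDP43 input, IP and IgG. Their exon sequences were 56.2 to 62.3% purine, with longest runs of 20 to 32 bases, against medians of 50.6% and 14 bases over all genes with exon sequence. Their exon lengths ran from 2126 to 10207 bases and were not matched. Whether purine runs go with this pattern was not tested. The nearest member, EIF3A, ranked 178 at a distance of 4.81, and EIF4G3 came next at rank 658.

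Beyond the EIF names, 30 further genes of initiation and its control were followed in 4 lists, all of which were tested. In input RNA 12 were higher and 15 lower in siTDP43 (40% and 50%, against 38.6% and 40.6% of all genes). All 5 poly(A)-binding protein genes and their partners fell, from log2 -0.25 for PAIP2B (adjusted p = 0.0088) to log2 -1.75 for PABPC4 (adjusted p = 3.64e-17). Of the 9 genes around eIF2alpha kinases and phosphatase 2 rose and 5 fell, with PPP1R15A, the stress-induced phosphatase subunit, the lowest at log2 -2.51 (adjusted p = 6.06e-28). Of the 7 other initiation and recycling proteins 5 rose and 1 fell, led by the helicase DDX3X at log2 2.16 (adjusted p = 1.23e-28), and of the 9 genes for mTOR and MNK control of eIF4E 5 rose and 4 fell. In WT IP over input 6 of the 30 were higher and 9 lower (20% and 30%, against 30.2% and 27.3% of all genes), with ABCF1, an ATPase that binds eIF2, highest at log2 3.13 and MIF4GD lowest at log2 -2.56. In siTDP43 7 were higher and 5 lower (23.3% and 16.7%, against 26.8% and 25.4%).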

How the data were processed

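acRIP-seq of HEK293T poly(A) RNA gave 17 libraries in 6 groups. The deposited table holds raw read counts per gene: per the methods and, for versions, the submitters' processing notes, the authors trimmed reads with Trim Galore 0.6.7, mapped them with STAR 2.7.10a to hg19 (the processing notes list mm10, while gene names and exon positions in the table are human) and counted uniquely mapped reads with featureCounts 2.0.2. The annotation release and the strand setting are not given in the sources used here. Low counts were mostly even (81.3 to 95.9% of counts from 1 to 20), as when mates are counted one by one, and reads carry no molecular identifiers. Standard errors are from the fits and measure spread between libraries, and the 1 interval given, for a share of genes, is exact binomial.

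Groups came from the labels. Counts were tested with edgeR 4.0.16 (R 4.3.3), TMM scaling, filterByExpr with a minimum count of 10, quasi-likelihood tests and Benjamini-Hochberg adjustment over all genes tested. The input comparison used 6 libraries, each genotype's pull-downs their 8 or 9 libraries, and interactions all 17. Calls needed an adjusted p under 0.05, and within a genotype a fold change above 2. CPM use TMM over the 17 libraries. The scripts were tested on simulated data. No libraries were duplicates (chi-square per degree of freedom 3.26 to 9.43).

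The members and lists were chosen with earlier results of these data known. The rule for genes named in full took EIF5B, core subunits, paralogs and, per comparison, the 3 called members with the largest rise and fall, no overlap of libraries and at least 100 counts on average. Exon sequences were read from GRCh37 at the table's exon positions and coding annotation from GENCODE. Alternatives were DESeq2 1.42.0, its size factors, total counts, no filter, a mean of 50 counts, limma 3.58.1 on log2(FPKM + 1), a replicate block, a GC correction, each library left out and, chosen after seeing the data, counts halved.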

Additional observations from a re-analysis of the deposited data

Results flagged for a closer look

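Each result here is a change of enrichment from WT to siTDP43 that passed the interaction test in edgeR over the 17 libraries, all among the members with the largest changes. The explanation of none was tested. Over input, IP enrichment changed by log2 2.10 for EIF3E, 2.05 for EIF3K and 2.04 for EIF3M, all subunits of eIF3, and by log2 -6.55 for EIF5B, -3.23 for EIF3A, also of eIF3, and -2.36 for the scaffold EIF4G1.

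Over IgG, the changes were log2 3.51 for EIF2A, 2.52 for EIF3F, -4.31 for EIF5B, -2.67 for EIF3G and -2.08 for EIF3A. EIF5A2 had a fitted change of log2 6.40, which rests on 2, 0 and 2 counts in siTDP43 IgG. With a floor of 3 counts per library the change was 38.2-fold, and neither value is a strict bound. Both comparisons share the IP libraries, and siTDP43 IgG was the shallowest group. HBB, a red cell gene, averaged 8.06 CPM in siTDP43 IgG and 1.44 CPM in siTDP43 IP. It had 0 counts in siTDP43 input and in WT input, IP and IgG. The methods describe mouse beta-globin probes with ac4C added to RNA, and whether the HBB reads come from them was not tested.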

How the results depend on the processing

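Of the values of main results under the alternatives, 535 kept their direction and side of the threshold, or a count within 1.5 times, 20 counts moved further and 1 value reversed. With the GC trend removed, WT IP over IgG had 3 members higher and 18 lower, against 27.4% and 28.8% of all genes. Likewise siTDP43 IP over IgG had 3 higher and 19 lower (24.7% and 29.0% of all genes). For siTDP43 IgG over input 21 were higher and 5 lower (34.0% and 30.0% of all genes). Also without that trend, ac4C(+) members in siTDP43 were 0, where 1002 of 12746 genes were ac4C(+). EIF5B in siTDP43 IP over IgG then turned to log2 -0.38. Scaling by total counts gave 11 members lower in siTDP43 IP over input (33.9% of all genes), 0 in IP over IgG (12.2%) and 16 in IgG over input (50.4%). It moved the median of all genes in the last comparison from log2 -0.58 to -1.13. With a mean of at least 50 counts, 4 members were lower in siTDP43 IP over IgG, against 14.4% of all genes tested. limma on log2(FPKM + 1) gave 0 lower there (8.25% of all genes) and 15 lower in siTDP43 IgG over input (36.5%). It gave 0 ac4C(+) members in siTDP43, where 535 of 12746 genes were ac4C(+). Leaving out 1 library, the lower count in siTDP43 IP over IgG ran from 1 to 3, against 14.4 to 14.9% of all genes. A fold change above 5 over IgG left 1 ac4C(+) member in WT and 0 in siTDP43, against 10.5% and 6.99% of all genes. IP over IgG alone gave 6 in each, against 35.2% and 34.0% of all genes.

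Of the other values, 11 reversed, 18 lost and 8 gained a call, and 1494 kept theirs. In siTDP43 IP over input, EIF1B was at log2 -0.085 with total counts and -0.087 with limma, EIF4G1 at -0.18 with total counts, -0.17 with limma and -0.072 without the GC trend, and without that trend EIF4A2 at 0.094 and EIF5A2 at 0.145. Also without it, EIF5 was at 0.075 and EIF5A at -0.624 in WT IP over input, and in the input comparison EIF5A at 0.002 and EIF6 at 0.553. The cause was not tested.

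Libraries with the same replicate number did not deviate together (r -0.0213 to 0.0269 over 40 pairs, against -0.0347 to 0.0391 over 80 other pairs). This gave no sign of pairing by number, but with so few libraries per group it cannot exclude a shared preparation. With the replicate number as a block, EIF5B was at log2 8.81 in WT IP over input. That comparison had 8 members higher and 20 lower, against 29.8% and 27.0% of all genes. The ac4C(+) members in WT were 2, where 2210 of 14751 genes were ac4C(+). No count moved by over 1.5 times. Depth limits siTDP43 IgG most.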
